A study of Mus musculus with 9 samples.

Results

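The comparison described here is the first time point of eribulin treatment in PB3 cells, which come from a mouse mammary tumour and which the labels give as negative for ER, PR and HER2, the hormone and growth factor receptors used to class breast cancers. Chromatin bound by ZEB1 was profiled by CUT&RUN, in which an antibody tethers a nuclease to the factor and the released DNA fragments are sequenced. The 2 libraries from cells kept 24 h in 300 nM eribulin were set against 2 libraries from untreated cells, and 4 further libraries, 2 at 48 h and 2 at 72 h, entered the same fit. The labels name the untreated cells PB3-Parental and all treated cells PB3_ERI, so drug and cell label cannot be told apart. Nothing in the labels shows that the replicates were grown separately, and p-values therefore measure only the spread between these libraries. All 23623 consensus peaks of the deposited count table belong to the comparison, and 21192 of them (89.7%) had enough counts to be tested.

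ZEB1 is a zinc-finger and homeobox protein that binds E-box sequences, classically CACCTG, and is best known for repressing epithelial genes such as those of cell junctions and polarity during epithelial-mesenchymal transition. It recruits corepressors including CtBP, and can also act with AP-1 and YAP at mesenchymal and matrix genes. Eribulin binds microtubule ends, stops their growth and arrests cells in mitosis. The counts measure ZEB1 signal on DNA and not transcripts, so neither gene expression nor the labelled cell type could be checked from them.

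After 24 h ZEB1 signal rose at 1365 peaks (6.44% of the tested peaks) and fell at 976 (4.61%), together 2341 (11.0%), by edgeR's quasi-likelihood test with Benjamini-Hochberg adjusted p below 0.05. The median log2 fold change of all tested peaks was -0.01. Over all tested peaks the median was 34.8 CPM (library-size scaled counts) in untreated cells and 35.6 at 24 h. Rising peaks had a median of 24.6 CPM in untreated cells and 55.4 at 24 h, and their median log2 change was 1.14. Falling peaks had a median of 70.2 CPM in untreated cells and 37.9 at 24 h, and a median log2 change of -0.91. The calls use these same values, so the untreated levels of the 2 sets of peaks are partly set by the calling. The number of calls depended on the tool and on depth: DESeq2 called 61 peaks higher and 29 lower (0.658% and 0.313% of the 9277 to which it gave an adjusted p, 0.970% together). Without control replicate 2, the deeper untreated library, edgeR called 300 higher (1.42%) and 179 lower (0.845%), together 2.26%. The 2 groups did not overlap at 99.7% of the called peaks, against 55.1% of all tested peaks. Total counts in peaks were 372896 and 672582 in the untreated libraries and 602187 and 747259 at 24 h. Replicates differed by no more than counting noise: a chi-square comparison of their counts gave 0.931 per degree of freedom between the untreated libraries and 0.953 between the 24 h libraries, where random draws from 1 pool give 1. It lay between 1.85 and 2.2 between an untreated and a 24 h library. In such bulk samples, a change in the share of cells with bound ZEB1 and a change in signal per cell cannot be told apart.

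**Figure D1:**
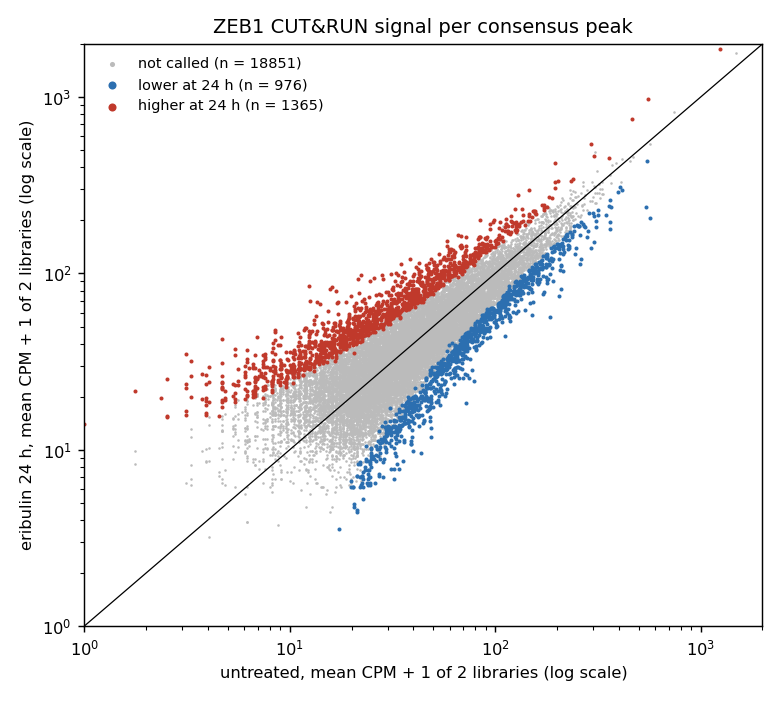
Each point is 1 of the 21192 tested peaks, with the mean CPM of the 2 untreated libraries on the x axis and of the 2 libraries at 24 h on the y axis, both with 1 added and on log scales. The 1365 rising peaks (red) extend to the weakest untreated levels, while the 976 falling peaks (blue) lie mostly among the stronger ones. The calls use these same values, which partly sets this placement.

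At gene starts, the promoter sequence beside rising peaks differed from that beside falling peaks. The windows below are the 250 bases before the annotated start of a gene whose start window overlaps a called peak, and a window can reach beyond its peak. They come from the RefSeq promoter table of build GRCm38 (mm10), and are those of peaks named for the smallest p or for the largest change at a gene boundary. The windows of 2 epithelial genes, Spint2 and Patj, chosen after their values were seen, were added. Capitals mark the ZEB1 E-box CACCTG, the variant CAGGTA that resembles it on the other strand, and the CCAAT box, a promoter element bound by NF-Y, each in either orientation. In the rising group are the windows of Ssh3 (chr19:4269181-4269430, minus strand), Spint2 (chr7:29281978-29282227, minus strand), Patj (chr4:98395576-98395825, plus strand), Tmem63a (chr1:180942268-180942517, plus strand) and Mrps24 (chr11:5707702-5707951, minus strand).
Ssh3: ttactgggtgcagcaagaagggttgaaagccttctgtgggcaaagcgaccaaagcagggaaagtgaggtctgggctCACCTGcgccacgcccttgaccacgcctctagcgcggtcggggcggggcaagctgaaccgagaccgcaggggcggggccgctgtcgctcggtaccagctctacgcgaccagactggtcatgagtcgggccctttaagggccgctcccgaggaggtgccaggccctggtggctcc
Spint2: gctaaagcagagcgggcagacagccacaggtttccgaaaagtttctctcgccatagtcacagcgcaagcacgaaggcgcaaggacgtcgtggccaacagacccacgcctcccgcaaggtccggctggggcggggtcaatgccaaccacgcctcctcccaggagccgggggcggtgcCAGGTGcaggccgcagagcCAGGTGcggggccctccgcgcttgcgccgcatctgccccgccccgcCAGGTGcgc
Patj: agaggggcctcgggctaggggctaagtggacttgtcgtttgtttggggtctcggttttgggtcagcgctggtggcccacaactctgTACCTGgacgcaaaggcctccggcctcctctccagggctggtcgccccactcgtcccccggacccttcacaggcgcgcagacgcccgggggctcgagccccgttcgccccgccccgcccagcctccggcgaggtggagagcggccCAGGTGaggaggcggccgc
Tmem63a: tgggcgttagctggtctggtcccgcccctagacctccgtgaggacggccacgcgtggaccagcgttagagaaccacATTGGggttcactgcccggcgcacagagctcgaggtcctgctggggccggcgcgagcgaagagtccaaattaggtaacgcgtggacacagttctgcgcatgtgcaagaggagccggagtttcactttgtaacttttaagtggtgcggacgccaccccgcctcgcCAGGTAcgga
Mrps24: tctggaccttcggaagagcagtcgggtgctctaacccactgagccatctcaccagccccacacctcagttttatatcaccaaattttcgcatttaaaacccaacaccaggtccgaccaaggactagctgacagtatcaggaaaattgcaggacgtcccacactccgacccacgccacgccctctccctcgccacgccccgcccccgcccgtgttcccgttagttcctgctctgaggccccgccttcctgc
In the falling group are the windows of Alyref2 (chr1:171503228-171503477, plus strand), H2ac24 (chr13:21833476-21833725, minus strand) and Sp1 (chr15:102406066-102406315, plus strand).
Alyref2: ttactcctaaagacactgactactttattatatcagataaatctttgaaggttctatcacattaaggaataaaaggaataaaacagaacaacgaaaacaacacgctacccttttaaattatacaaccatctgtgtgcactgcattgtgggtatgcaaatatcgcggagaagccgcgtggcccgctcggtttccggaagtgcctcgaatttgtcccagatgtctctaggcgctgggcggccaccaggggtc
H2ac24: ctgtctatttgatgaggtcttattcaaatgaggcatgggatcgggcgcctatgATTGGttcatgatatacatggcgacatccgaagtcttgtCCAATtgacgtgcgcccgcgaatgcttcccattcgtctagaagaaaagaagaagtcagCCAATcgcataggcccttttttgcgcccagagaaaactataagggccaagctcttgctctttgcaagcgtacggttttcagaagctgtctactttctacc
Sp1: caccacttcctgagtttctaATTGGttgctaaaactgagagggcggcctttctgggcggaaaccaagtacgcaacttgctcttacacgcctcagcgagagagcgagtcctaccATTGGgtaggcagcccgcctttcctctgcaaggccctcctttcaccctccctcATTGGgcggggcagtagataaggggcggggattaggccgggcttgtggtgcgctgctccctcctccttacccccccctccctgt
Ssh3 has 1 E-box before its start, which lies just outside the peak, and Spint2 has 3, all inside its peak. Patj has 1 here and 2 more in the first 50 bases after its start. Tmem63a carries no E-box but 1 copy of the variant, and Mrps24 carries none of the marked motifs. None of the 3 falling windows has an E-box, and those of H2ac24 and Sp1 each hold 3 CCAAT boxes.

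Across all gene starts the same contrast was seen. Of the tested peaks, 4962 overlapped the window from 250 bases before to 50 bases after the start of a protein-coding gene, with chromosome 18 not analysed here. The E-box CACCTG, on either strand, lay in 36.1% of the windows under rising peaks (108 of 299, 95% Wilson interval 30.9 to 41.7). It lay in 15.3% of those under peaks that were not called (688 of 4505, 14.3 to 16.4) and in 4.43% of those under falling peaks (7 of 158, 2.16 to 8.86). Of all 21263 promoters in the table, 19.7% hold it. Among the 2080 possible 6-base words, counted with their reverse complements, CACCTG ranked 1 for the excess in rising over falling windows and also for the excess in rising over uncalled windows. The next in both orders, ACCTGC and ACCTGG, overlap it.

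The variant CAGGTA, which shares 5 bases with the E-box on the other strand, was present in 13.7%, 6.79% and 2.53% of rising, uncalled and falling windows, and in 10.96% of all promoters. The other motifs searched by name did not follow this order. The E-box CAGCTG was in 14.7%, 13.3% and 15.8% of the 3 groups (15.6% of all promoters), and CACGTG, bound by Myc and USF proteins, in 10.03%, 11.2% and 10.1% (7.84%). The AP-1 site TGANTCA was in 6.69%, 5.08% and 6.33% (6.99%), and the TEAD site GGAATG in 12.4%, 11.3% and 13.9% (13.6%). CCAAT ran the other way, at 44.5% of rising, 46.5% of uncalled and 65.2% of falling windows, against 38.2% of all promoters. Several falling windows with CCAAT belong to histone genes, such as H2ac24, H2bc23 and H2ac13, and the CCAAT share was not recounted without them. Median GC content was 63.7% in rising windows, 63% both in uncalled and in falling ones. A match is a description of the letters in the window, not a bound site.

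The response also grew with the number of E-boxes. Of the 4159 peaks over windows with no E-box, 4.59% rose and 3.63% fell, with a median log2 change of 0.01. Of the 689 with 1 E-box, 11.5% rose and 1.02% fell, with a median of 0.25. Of the 114 with at least 2, 25.4% rose (29 peaks) and 0 fell by edgeR's test, with a median of 0.47. At an unadjusted p below 0.05, 2 of these 114 were lower, and DESeq2 called 0 of them in either direction. The median difference between peaks with and without an E-box was 0.24 on the log2 scale in the replicate 1 libraries and 0.27 in the replicate 2 libraries. These 3 classes had similar untreated levels, with median CPM of 36.1, 32.1 and 31.0.

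**Figure D2:**
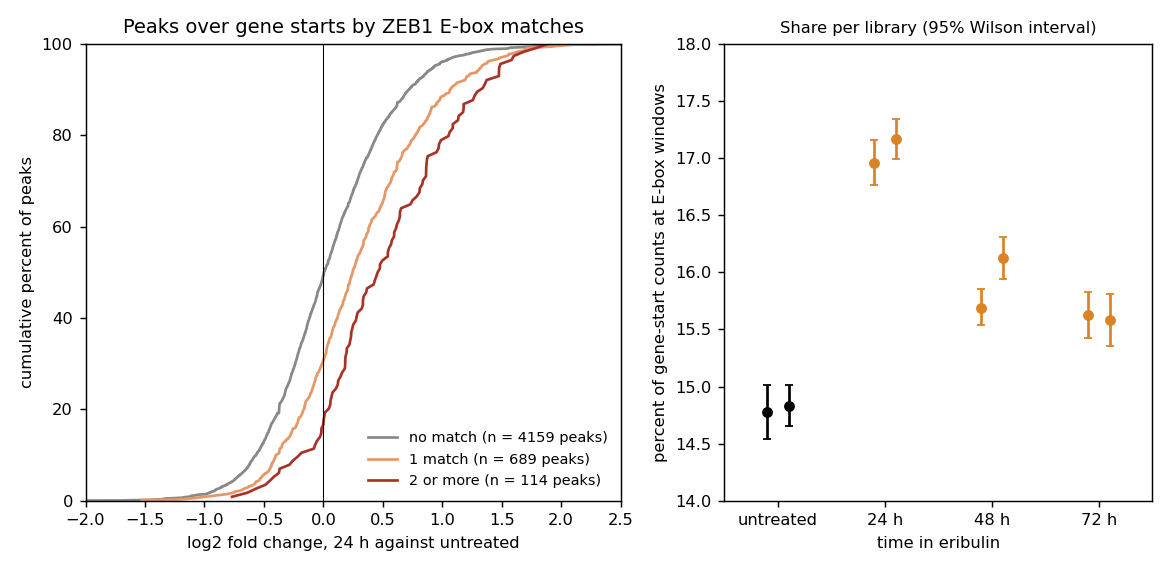
On the left, the cumulative percent of peaks over gene starts is plotted against the log2 fold change at 24 h for windows with 0, 1, and 2 or more matches to the ZEB1 E-box, and the curves shift to the right as matches increase (medians 0.01, 0.25 and 0.47). On the right, each point is a library, with the percent of its gene-start counts that fall at windows with the E-box and the 95% Wilson interval on an axis from 14 to 18, and both 24 h libraries lie above all others.

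The shift is visible in each library before any calling. Peaks over E-box windows averaged 43.9 and 44.0 CPM in the untreated libraries and 50.2 and 52.2 at 24 h, while those over other windows averaged 48.9 and 48.8 in untreated cells and 47.5 and 48.6 at 24 h. E-box windows held 14.8% of gene-start counts in both untreated libraries and 17.0% and 17.2% at 24 h. At 48 h they held 15.7% and 16.1%, and at 72 h 15.6% in both libraries. Mean CPM was above that of untreated cells at both later times, for E-box windows and for other windows alike. At 72 h it was 57.0 and 58.9 over E-box windows and 59.4 and 61.6 over other windows. The mean shares at E-box windows were 17.1 ± 0.148% at 24 h (SD, n = 2) and 14.8 ± 0.0395% in untreated cells (SD, n = 2). They differed by 2.26 percentage points. The exact two-sided permutation p was 0.333, the smallest that 2 against 2 libraries can give. Gene-start windows as a whole held 23.9% and 23.7% of counts in untreated cells and 23.6% and 24.4% at 24 h, and between 25.8% and 30.2% at the later times.

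Of the 29 rising peaks over at least 2 E-boxes, 4 are given here as examples chosen after their values were seen. Spint2, an epithelial inhibitor of membrane serine proteases, had 11 and 16.8 CPM in untreated cells and 37.5 and 55.9 at 24 h. Its log2 change was 1.68 (SE 0.365, adjusted p = 0.000693), and the call was lost without 24 h replicate 2. Patj, a scaffold of the Crumbs polarity complex, went from 11 and 18.3 to 42.6 and 34.1 CPM, a log2 change of 1.26 (SE 0.378, adjusted p = 0.0182). Its call was lost when control replicate 1, control replicate 2 or 24 h replicate 1 was left out. Mier2, with 3 E-boxes, went from 11 and 13.8 to 42.6 and 46.4 CPM, with a log2 change of 1.79. Pak1, a kinase downstream of Rac and Cdc42, went from 27.5 and 18.3 to 56.3 and 64.1 CPM, with a log2 change of 1.48. The groups were separate at each of these 4 peaks, as they were at 99.7% of all called peaks.

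The rising peaks with the smallest p, taken as 1 per gene, lay mostly away from gene starts. The leading one (chr3:96098500-96099599) lay 5455 bp outside Otud7b, which encodes a deubiquitinase of the NF-κB pathway. It had 198 and 193 CPM in untreated cells and 448 and 398 at 24 h, a log2 change of 1.11 (SE 0.135, adjusted p = 5.57e-10). Both treated libraries were above both untreated ones by about the same amount, but only peaks whose groups did not overlap were eligible. Otud7b had 10 tested peaks, of which 4 rose and 0 fell.

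At Ip6k3, an inositol hexakisphosphate kinase gene, an internal peak (chr17:27160768-27161352) went from 11 and 18.3 CPM to 78.4 and 83.2, a log2 change of 2.35 (SE 0.316, adjusted p = 2.45e-08). Inside Ddah1, which encodes an enzyme that breaks down asymmetric dimethylarginine, a peak (chr3:145892242-145892775) went from 19.3 and 12.2 to 78.4 and 79.1 CPM, with a log2 change of 2.401 (SE 0.326, adjusted p = 3.06e-08). At the start of Ssh3, whose product is a slingshot phosphatase acting on cofilin, the peak (chr19:4268956-4269325) went from 16.5 and 24.5 to 83.6 and 99.6 CPM. Its log2 change was 2.09 (SE 0.283, adjusted p = 3.06e-08), and this is the window with 1 E-box printed above. A peak 94 bp from a boundary of Sfxn3, a mitochondrial serine transporter gene, went from 16.5 and 26 to 98.9 and 95.5 CPM, with a log2 change of 2.09. In all 4 both 24 h libraries were above both untreated ones, which the choice of peaks with no overlap of the groups required. The untreated libraries also differed from each other by less than they did from the treated ones, which selection by small p favours. The other leading rises were near Hyal1, Tns3, Flacc1, Olfr456 and Tra2a, with log2 changes between 0.91 and 2.22. Mrps24, a mitochondrial ribosomal protein gene, had the largest log2 change, 2.28, among rising boundary peaks of at least median CPM, from 8.25 and 16.8 to 71.6 and 64.1 CPM.

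The falling peaks with the smallest p lay largely beside small RNA genes. Of the 10 leading falls, taken as 1 per gene, 8 lay within 1 kb of a small nuclear RNA (snRNA) gene, the exceptions being those of H2ac24 and Sp1. The deepest of them by p (chr1:171501297-171503835), next to Alyref2, an mRNA export factor gene, had 514 and 619 CPM in untreated cells and 201 and 207 at 24 h. Its log2 change was -1.49 (SE 0.122, adjusted p = 7.81e-19). Signal inside Hhat, the Hedgehog acyltransferase gene, went from 173 and 194 to 64.8 and 46.4 CPM, a log2 change of -1.77 (SE 0.191, adjusted p = 4.36e-12). Outside Mreg it went from 567 and 514 to 247 and 225 CPM, with a log2 change of -1.19. Over the 58 tested peaks near snRNA genes, 34 fell (58.6%, against 4.61% of all tested peaks) and 0 rose by edgeR, with 0 higher also at an unadjusted p below 0.05. DESeq2 called 17 of the 58 lower and 0 higher. Their median log2 change was -0.71. They held 0.854% and 0.865% of counts in the untreated libraries and 0.495% and 0.477% at 24 h, so both 24 h libraries were below both untreated ones. Genes annotated as snRNA include those for the RNA parts of the spliceosome and others such as U3, which acts in ribosomal RNA processing. Many occur in near-identical copies, and how reads that map to several copies were handled is not stated in any source used.

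Histone genes, many of which are transcribed mainly in S phase, showed a smaller fall. Of 52 tested peaks within 1 kb of a histone gene, 17 fell (32.7%, against 4.61% of all tested peaks) and 1 rose (1.92%, against 6.44%). Their median log2 change was -0.39, and DESeq2 called 3 lower and 0 higher. These peaks held 0.572% and 0.568% of counts in the untreated libraries and 0.395% and 0.420% at 24 h. At H2ac24, which encodes a histone H2A, the peak (chr13:21832937-21834240) went from 286 and 232 to 109 and 115 CPM, a log2 change of -1.17 (SE 0.154, adjusted p = 1.27e-08). Histone genes too are near-copies of one another, so single genes of the cluster are uncertain. At Sp1, which encodes a zinc-finger activator of GC-rich promoters, the peak (chr15:102405262-102406763) went from 281 and 324 to 139.8 and 161 CPM, a log2 change of -1.02 (SE 0.142, adjusted p = 6.36e-08). Without the snRNA and histone peaks the E-box contrast at gene starts was unchanged in direction: 4.62% of 4112 peaks rose with no E-box, 11.5% of 685 with 1 and 25.4% of 114 with at least 2.

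**Figure D3:**
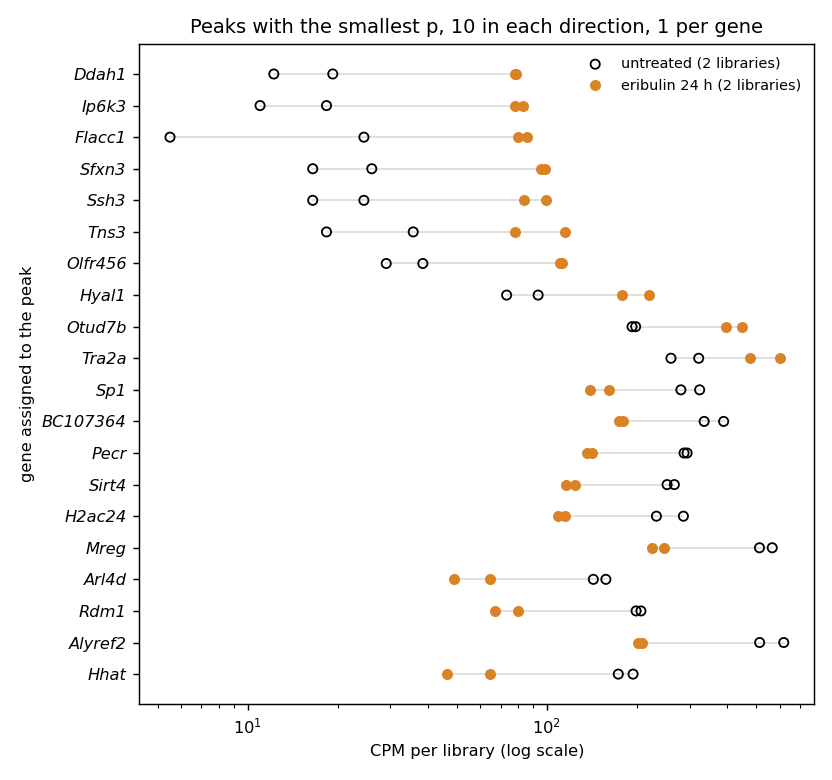
CPM of each library on a log axis for the 10 rising and 10 falling peaks with the smallest p, taken as 1 per assigned gene, with open circles for the 2 untreated libraries and filled circles for the 2 libraries at 24 h. Only peaks whose groups did not overlap were eligible, so the open and filled circles are separate in all 20 rows by selection. The lowest untreated value is 5.50 CPM, at the rising peak beside Flacc1.

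Peaks near other gene families were counted in the same way, and are read beside 6.44% higher and 4.61% lower over all tested peaks. Of 46 tested peaks near mitochondrial ribosomal protein genes, 7 rose (15.2%) and 1 fell (2.17%), with a median log2 change of 0.26. Of 57 near cytosolic ribosomal protein genes, 1 rose (1.75%) and 2 fell (3.51%), the latter near the share over all peaks. Of 55 near tRNA genes, 1 rose (1.82%) and 8 fell (14.5%). Peaks at gene boundaries, no more than 1 kb from an annotated start or end, rose in 6.26% and fell in 3.32% of 6027 cases. Those inside genes rose in 6.91% and fell in 4.06% of 7615, and those outside genes rose in 6.12% and fell in 6.19% of 7550. Calls were also more frequent where there was more signal. Of the 4239 weakest peaks by mean CPM 4.27% rose and 3.51% fell, and of the 4239 strongest 9.15% rose and 8.45% fell.

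Each peak was counted for 1 gene, the protein-coding or microRNA gene whose start or end was closest and at most 50 kb away, and gene lists were described by their peaks. Lists are read against the background of 6.44% higher and 4.61% lower, without a test of the list. Of 45 tested peaks at genes of epithelial adhesion and junctions, 5 rose (11.1%) and 0 fell, with a median log2 change of 0.16. At an unadjusted p below 0.05, 12 were higher and 2 lower, and DESeq2 called 0. The peak at the start of Jup, which encodes the desmosome and adherens protein plakoglobin, went from 96.3 and 110.1 to 186 and 176 CPM. Its log2 change was 0.78 (SE 0.170, adjusted p = 0.00073). F11r, encoding the tight-junction protein JAM-A, went from 46.8 and 39.7 to 73.3 and 95.5 CPM (log2 change 1.02, adjusted p = 0.00291), with 1 E-box and 1 copy of the variant in its start window. Peaks near Cgn (cingulin), Cldn4 and Cldn3 (claudins) rose by 0.82, 1.05 and 0.87 on the log2 scale. Without control replicate 2 the list had 1 rise, and without 24 h replicate 2 it had 2.

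Apical-basal polarity genes had 11 tested peaks, of which 3 rose (27.3%) and 0 fell, with a median log2 change of 0.45. At an unadjusted p below 0.05, 5 were higher and 0 lower, and DESeq2 called 0. Llgl2, a scribble-complex gene long described as repressed by ZEB1, had 55.0 and 62.7 CPM in untreated cells and 113 and 128 at 24 h, a log2 change of 1.01 (SE 0.207, adjusted p = 0.000295). Patj was described above. Pard6b, a Par-complex gene with 2 E-boxes, went from 151 and 142 to 182 and 211 CPM, with a log2 change of 0.45 (SE 0.156, adjusted p = 0.0466). Its untreated values were the nearest to the treated ones of the 3, and it was not called with RLE size factors or with a replicate block. Between 1 and 2 polarity peaks were called higher when any single library was left out.

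Keratins and other epithelial regulators were mixed, with 1 of 12 tested peaks higher (Spint2) and 2 lower. The falls were outside Krt8 and Krt18, simple epithelial keratins, at -0.87 and -0.55 on the log2 scale. The strongest peaks assigned to the adherens-junction gene Cdh1 (E-cadherin) and to Epcam did not pass. The Cdh1 peak had 71.5 and 94.8 CPM in untreated cells and 101 and 112 at 24 h, a log2 change of 0.31 (SE 0.195, adjusted p = 0.323). The Epcam peak had 41.3 and 39.7 CPM in untreated cells and 44.3 and 42.3 at 24 h, a log2 change of 0.10 (SE 0.286, adjusted p = 0.866).

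Mesenchymal and matrix genes had more falls than rises. Of 63 tested peaks at collagen and matrix genes, 8 fell (12.7%) and 1 rose, with a median log2 change of -0.16. DESeq2 called 0 of the 63 in either direction. A peak outside Col6a1, a collagen VI chain gene, went from 63.3 and 81.0 to 29.0 and 21.8 CPM, a log2 change of -1.57 (SE 0.278, adjusted p = 2.62e-05). A second Col6a1 peak and peaks near Col6a2, Col6a3, Col18a1 and Lox and inside Loxl2 were among the other falls. The rise was near Thbs2, from 2.75 and 3.06 to 22.2 and 13.6 CPM. Leaving out control replicate 2 left 2 falls in this list and 0 rises.

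At the start of Vim, which encodes the intermediate filament vimentin, the peak (chr2:13573568-13574543) went from 113 and 119 to 58.0 and 51.8 CPM. Its log2 change was -1.10 (SE 0.213, adjusted p = 0.00013), and its window holds 2 CCAAT boxes and 0 E-boxes. Of the 44 tested peaks at mesenchymal cytoskeleton and adhesion genes, 4 fell (9.09%), at Vim and at 3 peaks near the adhesion receptor gene Cd44. There were 3 rises (6.82%), 2 near Itgb1 and 1 in Axl, and DESeq2 called 0 of the 44. Among transcription factors of epithelial-mesenchymal transition, 3 of 31 peaks fell, near Tcf3 (-0.71), Sox9 (-0.99) and Snai1 (-1.55). In this group 1 peak near Snai2 rose (0.88), and DESeq2 called 0 peaks. None of these 4 calls remained without control replicate 2. The single tested Zeb1 peak had 79.8 and 94.8 CPM in untreated cells and 71.6 and 80.5 at 24 h, a log2 change of -0.22 (SE 0.208, adjusted p = 0.528). The strongest Zeb2 peak, at 77.0 and 87.1 CPM untreated and 69.9 and 66.8 at 24 h, had a log2 change of -0.29 (SE 0.225, adjusted p = 0.43).

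AP-1 and other immediate-early genes, which respond within minutes to growth signals, had 100 tested peaks. Of these 11 fell (11.0%) and 5 rose, with a median log2 change of -0.12, and DESeq2 called 0. At the start of Jun the peak (chr4:95051912-95052666) went from 165 and 135 to 63.1 and 92.8 CPM, a log2 change of -0.87 (SE 0.186, adjusted p = 0.000508). Of 5 tested Fos peaks 3 fell, the leading one from 143 and 107 to 56.3 and 61.4 CPM, a log2 change of -1.02. Falls were also called near Fosb (-1.31), Jund (-0.71), Egr1 and Dusp6. Of the 5 rises 3 were near Klf6, a zinc-finger factor gene, and 1 near Ier5. Without control replicate 2 there were 2 falls and 0 rises.

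The Hippo pathway restrains the coactivator YAP, and its genes showed the opposite balance. Of 64 tested peaks 8 rose (12.5%) and 1 fell, with a median log2 change of 0.20. Amotl2, which encodes an angiomotin that binds YAP and tight junctions, held 4 of the 8, out of 7 tested. Its leading peak (chr9:102763592-102763889) went from 24.8 and 15.3 to 58.0 and 76.4 CPM, a log2 change of 1.86 (SE 0.314, adjusted p = 9.68e-06). Rises were also called in Wwc1 (0.76), which encodes the adaptor KIBRA, and in Tead1 (0.70), and near Vgll3 and Ankrd1. The fall was near Ccn1, a YAP target, at -0.74. Without control replicate 2 there was 1 rise, and DESeq2 called 0.

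**Figure D4:**
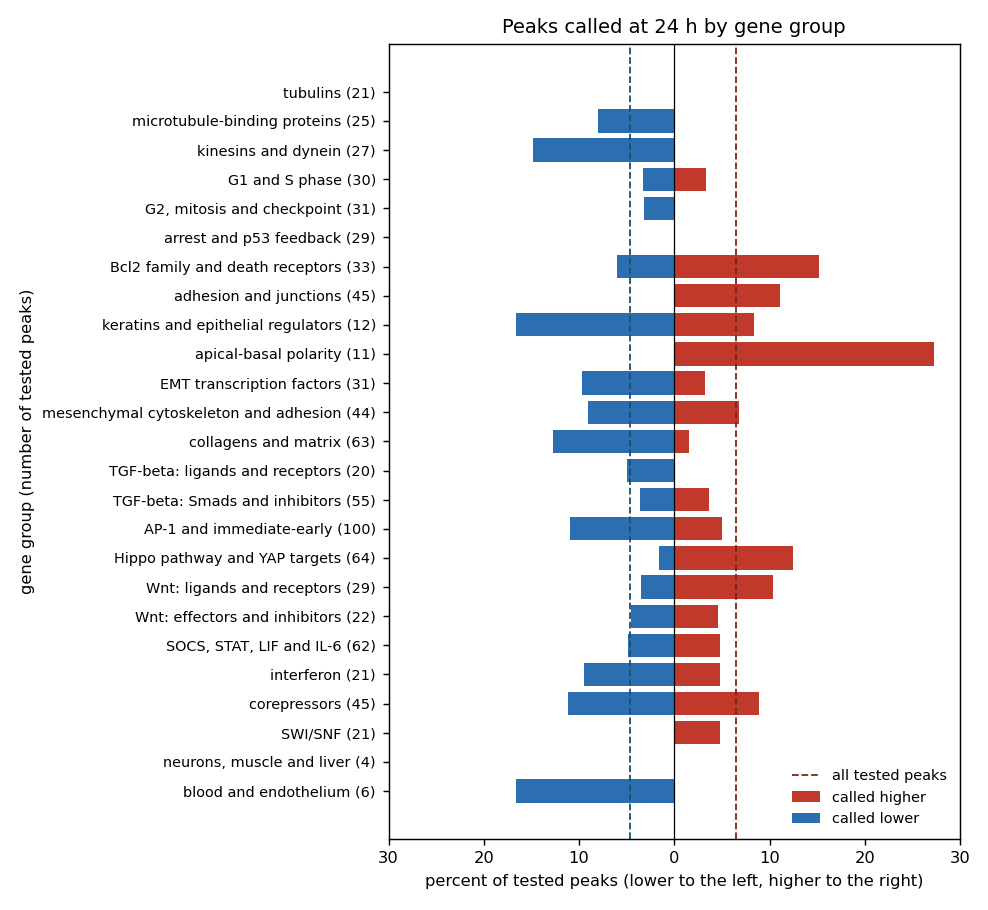
Bars give the percent of tested peaks called higher (red, right) and lower (blue, left) at 24 h in each gene group, with the number of tested peaks in brackets, and dashed lines give the background of 6.44% and 4.61%. Polarity (27.3% of 11 peaks) and Bcl2-family genes (15.2% of 33) have the longest red bars, and several of the long bars rest on fewer than 5 peaks.

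Few peaks at genes of microtubules, the drug's target, passed the test. Tubulins had 21 tested peaks, with 0 called in either direction, 2 higher and 0 lower at an unadjusted p below 0.05, and 0 called by DESeq2. The strongest Tubb5 peak had 22.0 and 41.3 CPM in untreated cells and 35.8 and 34.1 at 24 h, so the groups overlapped. A rise over the start of Tuba4a, singled out after its values were seen (38.5 and 22.9 to 87.0 and 72.3 CPM, log2 change 1.46, adjusted p = 7.69e-05) was counted under A630095N17Rik, whose boundary is nearer, and the Tuba4a window has 1 E-box. Of 27 peaks at kinesin and dynein genes 4 fell (14.8%) and 0 rose, with 4 higher at an unadjusted p below 0.05 and 0 higher by DESeq2. The clearest was outside Kif2c, which encodes a microtubule depolymerase, from 198 and 182 to 95.5 and 84.6 CPM, a log2 change of -1.07 (SE 0.167, adjusted p = 1.43e-06). That peak also lies within 1 kb of an snRNA gene. Of 25 peaks at microtubule-binding protein genes 2 fell, both near Tacc1.

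Cell-cycle and p53 genes had few calls. Of 30 peaks at G1 and S phase genes 1 rose, near Ccnd1 (cyclin D1, 0.93), and 1 fell, near Myc (-1.40). Of 31 at G2, mitosis and checkpoint genes 1 fell, near Wee1, a kinase that holds back mitotic entry, from 60.5 and 79.5 to 25.6 and 25.9 CPM. Genes of p53-driven arrest and feedback had 29 tested peaks, with 0 called, 2 higher and 4 lower at an unadjusted p below 0.05 and 0 called by DESeq2. The strongest Cdkn1a peak had 19.3 and 24.5 CPM in untreated cells and 32.4 and 42.3 at 24 h, a log2 change of 0.74 (SE 0.341, adjusted p = 0.158). In the Bcl2 family and death receptors, 5 of 33 peaks rose (15.2%) and 2 fell, with a median log2 change of 0.25. DESeq2 called 0 of the 33. The rises were 3 peaks inside Bcl2l1, which encodes the survival protein Bcl-xL, 1 near Bcl2 and 1 at Bad, a death promoter. The leading Bcl2l1 peak (chr2:152821997-152822341) went from 8.25 and 18.3 to 58.0 and 45.0 CPM, a log2 change of 1.77 (SE 0.357, adjusted p = 0.000242). The falls were near Bax, the pore-forming death effector (66.0 and 56.6 to 29.0 and 25.9 CPM, log2 change -1.13), and inside Bmf. Leaving out control replicate 2 left 2 rises and 0 falls.

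Signalling and cofactor genes were counted in the same way. SOCS, STAT, LIF and IL-6 genes had 62 tested peaks, with 3 rises and 3 falls. The leading fall was outside Socs3, a feedback inhibitor of cytokine receptors, from 93.5 and 62.7 to 18.8 and 28.6 CPM, a log2 change of -1.59 (SE 0.285, adjusted p = 3.15e-05). Of 55 peaks at Smads and Smad inhibitors 2 rose and 2 fell, and Smad3 alone accounted for 1 rise and 2 falls. TGF-beta ligands and receptors had 1 fall in 20 peaks, near Tgfbr3. Of 29 peaks at Wnt ligands and receptors 3 rose (10.3%) and 1 fell, and of 22 at Wnt effectors and inhibitors 1 rose and 1 fell, the fall near Tcf7l2 (-1.60). Interferon genes had 1 rise and 2 falls (9.52%) in 21 peaks. Corepressor genes had 4 rises (8.89%) and 5 falls (11.1%) in 45 peaks, among the falls one at the start of Ctbp1, a ZEB1 corepressor, from 52.3 and 45.9 to 18.8 and 24.6 CPM. SWI/SNF genes had 1 rise in 21 peaks, inside Arid1a. Genes of neurons, muscle, liver, blood and endothelium had 4 tested peaks in the first 3 types and 6 in the last 2, with 0 rises by edgeR (1 higher in each set at an unadjusted p below 0.05, 0 by DESeq2) and 1 fall, near Ptprc (-0.78).

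Some genes had several calls. Of 9314 genes with a tested peak, 962 had at least 1 rise, 641 at least 1 fall and 39 both. At least 3 peaks rose at 16 genes, with 0 falls at any of them: 3110040M04Rik, 4930432M17Rik, Afdn, Amotl2, Bcl2l1, Cgnl1, Ddah1, Egfr, Ergic1, Insyn1, Klf6, Otud7b, Phlpp1, Pik3cb, Slco4a1 and Tcte2. Afdn and Cgnl1 encode the junction proteins afadin and paracingulin. The called Afdn peaks summed to 44.0 and 48.9 CPM in untreated cells and 119 and 127 at 24 h, and those of Cgnl1 to 46.8 and 85.6 and to 169 and 147. Egfr, the epidermal growth factor receptor gene, had 3 internal rises of 0.97 to 1.12 on the log2 scale. These summed to 88.0 and 87.1 CPM in untreated cells and 174 and 188 at 24 h. All of these sums cover only peaks called higher, 3 each out of 4 tested at Afdn, 4 at Cgnl1 and 7 at Egfr. Their rise therefore restates the calls. At least 3 peaks fell at 9 genes. All called peaks of BC107364, Rdm1 and Tex14 lay within 1 kb of genes annotated as snRNA, and the other 6 genes were Cd44, Fos, Hes1, Irf2bp2, Plekhg6 and Tns4. Peaks of 1 gene lie close together and are not independent of each other. The 16 genes had between 3 (4930432M17Rik) and 10 (Otud7b) tested peaks, and the 9 genes between 3 (Rdm1) and 13 (Cd44). Of all tested peaks 6.44% rose and 4.61% fell. A gene with more tested peaks has more occasions to reach 3 calls, and an excess over that was not tested.

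The deposited peak lists, 1 per group and called against the IgG library, gave a view that does not use the counts. The list for untreated cells held 18749 peaks, of which 64.9% overlapped a peak of the 24 h list by at least 1 base, and 81.2% of the 15163 peaks at 24 h overlapped an untreated one. Untreated peaks that were shared had a median fold over IgG of 8.04 in the authors' values, and those that were not had 5.36. The 12084 tested peaks present in both lists had 737 rises (6.10%) and 527 falls (4.36%). Within them, 4.56% of peaks over start windows with no E-box rose, 11.1% with 1 and 24.7% with at least 2. The lists come from the same libraries as the counts and are no independent support.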

How the data were processed

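ZEB1 CUT&RUN libraries were sequenced paired-end at 76 bp, per the labels' protocols. Tools named in the submitters' processing notes are MACS2 2.1.1, featureCounts, Bowtie2 2.2.6 and Picard, besides cutadapt 2.4, deepTools, bedtools 2.30.0 and bcl2fastq 2.20.0.422, on mouse build GRCm38 (mm10), with no settings given. The deposited table holds raw integer counts per consensus peak, unscaled by the authors. The deposited peak lists give a fold over IgG and a −log10 q from the authors' peak caller, and per the file headers (peak names) each was called for replicate 1 against IgG. The IgG library has no count column and entered no test.

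Counts were fitted with edgeR 4.0.16 in R 4.3.3, using filterByExpr by group, TMM scaling and a robust quasi-likelihood model. The model had 1 mean per group over all 8 ZEB1 libraries, with 4 residual degrees of freedom and a common biological coefficient of variation of 0.0341. The fit was also run on simulated counts of about that spread, which checks the code and not the calls under a larger spread. A peak counted as called when its p, adjusted by Benjamini-Hochberg across the 21192 tested peaks, was under 0.05. CPM are counts scaled to a common TMM-adjusted library total. Without added control DNA, changes are relative to other peaks, and a change shared by all peaks cannot be seen. Intervals cover counting error only.

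Gene names and promoter windows came from RefSeq tables of GRCm38.p6. No genome sequence was used, so motifs were searched only in 300-base start windows, on both strands, and not on chromosome 18. Named peaks were the 10 per direction with the smallest p among peaks whose groups did not overlap, at 1 peak per gene, the 8 per direction with the largest change at gene boundaries (no overlap, at least median CPM), the best called peak per direction of each list role, genes with at least 3 called peaks in 1 direction, and the strongest peak of 13 fixed genes. Gene-start sequences came from the leading boundary peaks of the first 2 rules. Other called list members were named after their values were seen. Members, lists and the motif search were chosen with earlier results of these data known. Alternatives are DESeq2 1.42.0, other scalings and filters, a replicate block, summed pairs, thinning to 326944 counts, a minimum fold of 1.2 and leaving out each library. The peak lists for 48 h and 72 h were not analysed here.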

Additional observations from a re-analysis of the deposited data

Results flagged for a closer look

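Some of the leading peaks moved again after 24 h, by a test of the later time against 24 h in the same fit (edgeR, adjusted over all tested peaks). The untreated libraries enter that fit's estimate of spread. The peaks were chosen for their 24 h values, which by itself favours a return toward the untreated level, so the values that turn back are a description and not a finding. Falls that went further were at Mreg, by -1.07 on the log2 scale at 48 h against 24 h (adjusted p = 2.37e-06) and -1.02 at 72 h (9.02e-05), and at BC107364, by -0.62 at 48 h (0.0286). Further falls at 72 h were -1.35 at Hhat (0.0183) and -1.03 at Pecr (0.00163). All 4 of these peaks lie within 1 kb of an snRNA gene.

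Falls that turned back at 72 h were at Klf16, by 1.66 (adjusted p = 0.000264), Mrpl58, by 1.35 (0.0105), Bax, by 1.06 (0.0335), and Sp1, by 0.84 (0.000327). At Klf16 the 24 h libraries had 25.6 and 23.2 CPM and the 72 h libraries 71.7 and 84.7, beside 63.3 and 74.9 in untreated cells. Rises that turned back were at Otud7b, by -0.52 at 48 h (0.0147) and -0.55 at 72 h (0.00777), and at 72 h at Ssh3, by -0.95 (0.0179), and Flacc1, by -0.88 (0.042). The Tmem63a peak rose further, by 0.79 at 72 h (0.0446). The causes were not tested.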

How the results depend on the processing

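The counts of 2341 called peaks, 1365 higher and 976 lower, stayed within 1.5 times with RLE size factors, no scaling, upper-quartile scaling, no filter, a mean count of at least 10, the 4 libraries alone and summed replicate pairs (1892). DESeq2 gave 90, 61 and 29, where the square root of its median dispersion was 0.259; libraries thinned to the smallest total gave 717, 428 and 289, and a minimum fold of 1.2 gave 1276, 826 and 450. Leaving out 1 library gave 479 to 1427 called, 300 to 849 higher and 179 to 578 lower, with the lone library assumed to vary like the other groups. Leaving out control replicate 2 gave the fewest calls, and most named called peaks were then no longer called. Of the 194 named called peaks, DESeq2 kept 30, lost 99 and gave the rest no adjusted p. The E-box share in rising windows was 50% (6 of 12) and in falling windows 16.7% (1 of 6) with DESeq2's calls, and 32.4% to 41.8% and 2.70% to 6.9% on leaving out 1 library. The median difference between peaks with and without an E-box was 0.20 to 0.28 over all settings. The E-box alternatives were chosen after seeing the data. With a replicate block 2262 peaks were called, 1332 higher and 930 lower, and 187 of the 194 named calls held. Same-numbered libraries did not deviate together (correlations -0.03 to 0.00). Replicates differed by little more than counting noise, so these correlations cannot show whether the numbers mark a shared day or culture. No named called peak reversed its direction in a setting that gave it a result. One count was worth 1.32 to 3.14 CPM, which limits peaks near the bottom of the range.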
